A study of Mus musculus with 6 samples.

Results

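The genes examined here are 38 DNA repair and damage signalling genes, taken from a fixed list of symbols out of 21627 protein-coding genes on mouse chromosomes 1 to 19 and X. They were read in ATAC-seq peak lists, which record where a transposase could cut into open chromatin, from long-term haematopoietic stem cells (Lt-HSCs) of C57BL/6 mice. The groups were 3 aged and 3 young samples, with one list of distinct peaks each. All 6 samples were sorted from bone marrow as Lin- Kit+ Sca1+ Flk2- Cd34- cells, and all were held overnight at 3% oxygen in HBSS with serum, so none shows these cells without that step. The labels state neither an age in weeks nor a sex. They do not tell whether different mice gave the samples of a group, so a p-value here reflects only the scatter of these samples, which may be technical.

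For each gene, distinct peaks within 1 kb of either annotated end were taken as gene-end peaks, and those further inside as body peaks. A gene was called in a list when at least 1 gene-end peak was present. The strength of a peak is given as its percentile within its own list, ranked by the authors' -log10 p, so that 100 is the strongest peak of that list. The whole lists differ in length, so these percentiles describe a gene's place within a list and show no change between ages. The 38 genes were parted into 7 groups: 6 in damage signalling, 8 in homologous recombination, 9 in the Fanconi pathway, 5 in end-joining, 5 in base excision and single-strand break repair, 4 in nucleotide excision and 1 in mismatch repair.

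DNA breaks are sensed by the kinases ATM, ATR and DNA-PK. ATM signals mainly through CHEK2, and ATR through CHEK1, to halt the cell cycle. Breaks are then sealed directly by end-joining or copied from the sister chromatid by homologous recombination, and the Fanconi pathway unhooks crosslinks between the strands. Excision pathways cut out single damaged bases or bulky lesions, and mismatch repair corrects copying errors. Blood stem cells divide rarely and are known to rely on end-joining while quiescent. Inherited loss of Fanconi genes leads to bone marrow failure.

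The lists differ in length and in strength, and their read depth is unknown. After merging, 244692, 129137 and 129949 peaks were used from aged replicates 1 to 3, against 263956, 254869 and 110596 from young replicates 1 to 3. Young replicate 2 stands apart: its -log10 p took 0.785 distinct values per 1000 peaks, against 12.3 to 154 in the other lists, so many of its peaks share a percentile. Aged replicate 3 and young replicate 2 called fewest genes of any kind, at 53.1% and 55% of all genes at gene ends, against 64.3% to 69.7% in the other 4 lists. The stem-cell genes Meis1, Hlf, Procr, Kit, Tal1 and Runx1 were called at gene ends in all 6 lists, and Mecom in 5. Markers of other lineages were called as well. Of 6 myeloid genes, 3, 1 and 1 were called in aged replicates 1 to 3, against 2, 3 and 2 in young replicates 1 to 3. Of 5 B cell genes, 5, 4 and 1 were called in the aged lists, against 5, 3 and 4 in the young ones. Of 3 T cell genes, 2, 3 and 1 were called in the aged lists, against 2, 1 and 1 in the young ones. Of 4 erythroid genes, 4, 3 and 1 were called in the aged lists, against 2 in each young one. Mpo was the only one of these called in all 6 lists, while Cd3d, at percentiles of 99 or more, and Cd79a were called in all but young replicate 2. The part of other cell types in the results below was not tested.

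The promoter of 1 member of each group, the one whose promoter window held the highest-ranked peaks, shows what the open regions hold. Each line gives the 300 bases that RefSeq places around one start, 250 before and 50 after it, on GRCm38.p6, which is mm10, read 5′ to 3′ on the gene's strand. Capitals mark matches to the letters of the motifs searched, on either strand; matches that adjoin run together.
Chek2, damage signalling, chr5:110839733-110840032, plus strand: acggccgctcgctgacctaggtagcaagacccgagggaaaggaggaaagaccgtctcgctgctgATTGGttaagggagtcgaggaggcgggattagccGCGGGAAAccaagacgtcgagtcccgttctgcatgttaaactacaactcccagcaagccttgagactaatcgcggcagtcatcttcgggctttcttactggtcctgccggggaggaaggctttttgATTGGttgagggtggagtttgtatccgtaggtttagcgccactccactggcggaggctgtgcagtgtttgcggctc
Xrcc3, homologous recombination, chr12:111813830-111814129, minus strand: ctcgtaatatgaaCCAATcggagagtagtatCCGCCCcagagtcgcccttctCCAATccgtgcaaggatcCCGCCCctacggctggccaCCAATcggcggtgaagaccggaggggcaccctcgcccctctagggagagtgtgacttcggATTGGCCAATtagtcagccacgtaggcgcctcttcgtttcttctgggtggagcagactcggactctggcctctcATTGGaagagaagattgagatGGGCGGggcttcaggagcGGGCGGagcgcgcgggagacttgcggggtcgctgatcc
Fance, Fanconi, chr17:28313280-28313579, plus strand: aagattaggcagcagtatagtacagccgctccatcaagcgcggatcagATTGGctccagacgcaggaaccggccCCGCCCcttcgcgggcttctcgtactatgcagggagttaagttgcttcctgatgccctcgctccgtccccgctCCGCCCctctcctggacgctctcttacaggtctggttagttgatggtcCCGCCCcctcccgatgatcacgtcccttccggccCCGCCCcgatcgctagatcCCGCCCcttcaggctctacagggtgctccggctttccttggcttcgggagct
Lig4, end-joining, chr8:9976262-9976561, minus strand: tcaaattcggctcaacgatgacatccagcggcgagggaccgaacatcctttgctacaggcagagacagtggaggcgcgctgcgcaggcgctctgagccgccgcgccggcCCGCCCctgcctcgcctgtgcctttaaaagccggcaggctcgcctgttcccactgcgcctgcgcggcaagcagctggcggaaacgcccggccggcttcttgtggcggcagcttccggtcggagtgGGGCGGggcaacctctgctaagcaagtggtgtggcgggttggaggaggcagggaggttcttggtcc
Ogg1, base excision, chr6:113326726-113327025, plus strand: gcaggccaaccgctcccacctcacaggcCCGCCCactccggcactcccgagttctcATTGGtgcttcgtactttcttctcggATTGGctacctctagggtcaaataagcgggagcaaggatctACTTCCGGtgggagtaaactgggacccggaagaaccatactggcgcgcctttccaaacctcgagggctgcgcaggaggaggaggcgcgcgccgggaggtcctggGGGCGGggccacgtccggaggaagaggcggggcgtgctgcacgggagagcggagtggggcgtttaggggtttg
Ercc4, nucleotide excision, chr16:13109486-13109785, plus strand: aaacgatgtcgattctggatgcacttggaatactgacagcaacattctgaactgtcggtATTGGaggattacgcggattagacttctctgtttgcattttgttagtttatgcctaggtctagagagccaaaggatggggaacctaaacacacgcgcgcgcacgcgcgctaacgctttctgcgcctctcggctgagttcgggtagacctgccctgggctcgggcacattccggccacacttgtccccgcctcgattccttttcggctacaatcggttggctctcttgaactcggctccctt
Msh6, mismatch repair, chr17:87974800-87975099, plus strand: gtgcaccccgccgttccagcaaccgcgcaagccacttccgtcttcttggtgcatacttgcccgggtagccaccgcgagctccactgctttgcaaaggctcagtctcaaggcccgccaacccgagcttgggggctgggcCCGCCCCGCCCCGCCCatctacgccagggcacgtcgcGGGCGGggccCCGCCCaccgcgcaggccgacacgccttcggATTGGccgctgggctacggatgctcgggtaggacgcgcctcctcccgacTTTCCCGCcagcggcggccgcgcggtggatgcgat

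The first question was how widely the repair genes were open in these stem cells. Of the 38 members, 27 (71.1%) had a gene-end peak in all 6 lists, against 35.1% of all genes. A further 7 were called in 5 lists, 1 in 4 and 3 in 3, and no member was without a call. A call can come from either end and from different peaks in different lists. The strongest gene-end region itself was called in all 6 lists for 21 members, against 6619 of the 19017 genes with a region. In lists from bulk cells, a region open in more of the cells and one that is more open per cell cannot be told apart. The members called in all 6 lists were Atm, Atr, Chek2, Mdc1, Brca1, Rad50, Nbn, Rad52, Xrcc3, Fanca, Fancd2, Fance, Fancf, Fancg, Fancl, Fancm, Xrcc4, Lig4, Prkdc, Xrcc1, Lig3, Parp1, Ogg1, Ercc1, Ercc4, Xpc and Msh6. The 57 other genes of these pathways, drawn up as a second list, had 41 called in all 6 lists. They included Rpa1, Rpa2 and Rpa3, which coat single-stranded DNA, the damage sensors Ddb1 and Ddb2, and the mismatch genes Msh3, Mlh3 and Pms1. One of the 57, the end-joining gene Paxx, was called in 0 lists.

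**Figure D1:**
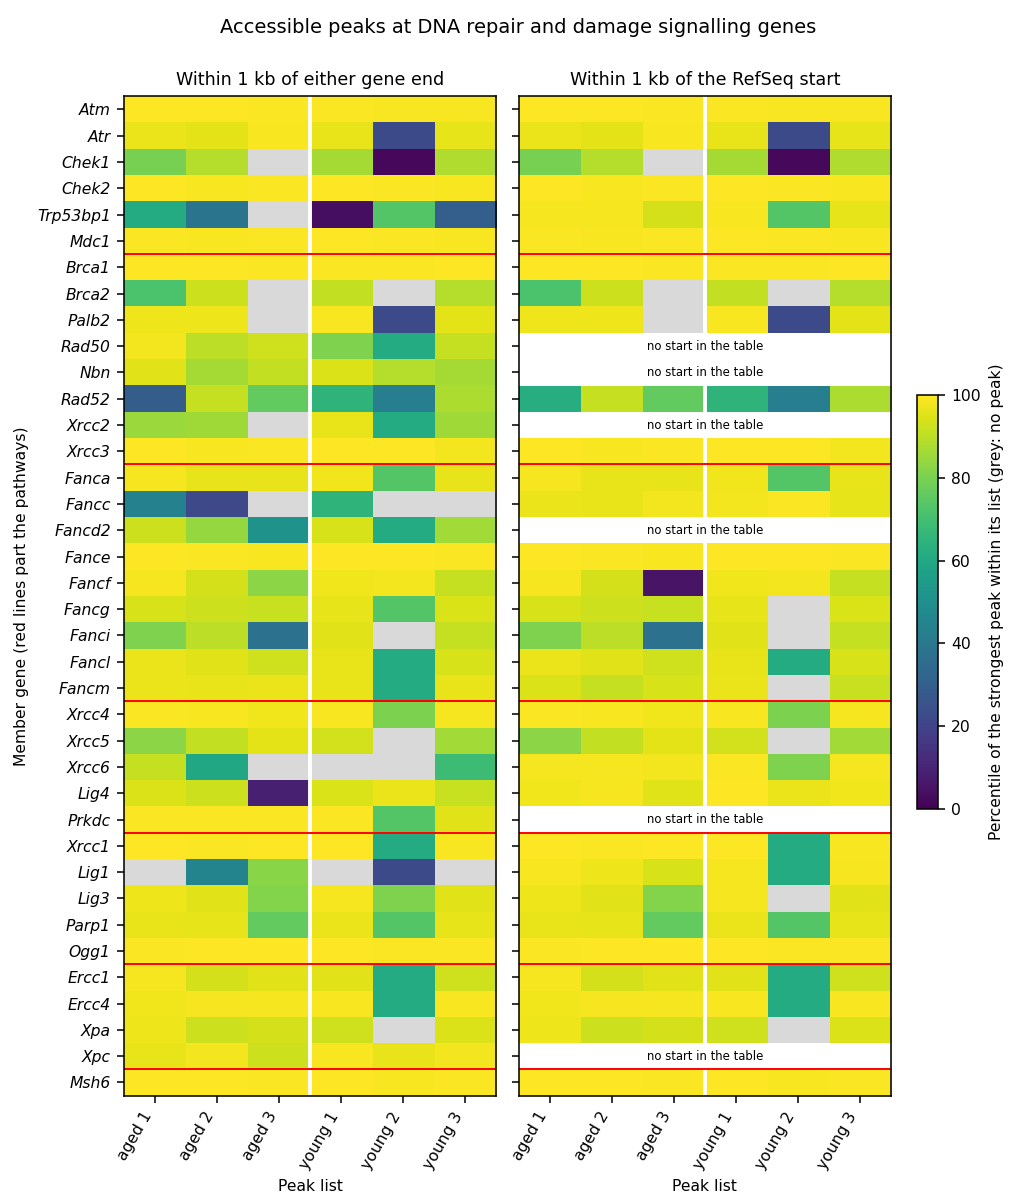
Percentile of the strongest peak of each member (rows, grouped by pathway between red lines) in the 3 aged and 3 young lists (columns), within 1 kb of either gene end (left) and of the RefSeq start (right); grey marks a list without a peak, and 6 members have no start in the table used. Most rows are near 100 at both ages, the pale or dark cells lie mostly in aged replicate 3 and young replicate 2, and Fancc, Xrcc6, Lig1 and Trp53bp1 are weak on the left and strong on the right.

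By age, the number of members called differed by less than the spread of the lists. The aged lists called 37, 38 and 31 of the 38 members, and the young lists 36, 32 and 36. The mean was 35.3 ± 3.79 members per aged list, against 34.7 ± 2.31 members per young list (SD, n = 3 each), a difference of 0.667 members that is smaller than either SD. It was 2.83 without aged replicate 3, which is above the SD of the young lists, and it turned to -0.167, -0.667 and -0.667 without aged replicate 1, aged replicate 2 and young replicate 2. In the 2 lists that called fewest genes, 7 members were missing in aged replicate 3 and 6 in young replicate 2. Only 3 members (Fancc, Xrcc6 and Lig1) lacked a call in any of the 4 other lists.

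**Figure D2:**
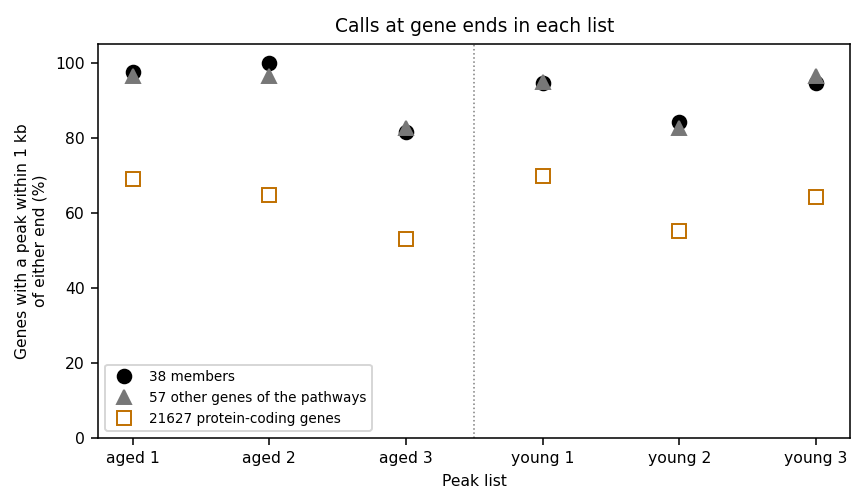
Share of genes (percent) with a peak within 1 kb of either end, for the 38 members (filled circles), the 57 other pathway genes (triangles) and all 21627 protein-coding genes (open squares), in each aged list (left) and young list (right). Members lie between 81.6% and 100% in aged and between 84.2% and 94.7% in young lists, above all genes in each list, and all 3 groups of genes are lowest in aged replicate 3 and young replicate 2.

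No member was called at one age alone. The 3 aged lists and no young one called 0 of the 38, against 0.208% of all genes, and the 3 young lists and no aged one called 0, against 0.287% of all genes. More aged than young lists called 6 members, Fancc, Fanci, Xrcc5, Xrcc6, Lig1 and Xpa, which is 15.8% against 19.7% of all genes. More young than aged lists called 4 members, Chek1, Trp53bp1, Palb2 and Xrcc2, which is 10.5% against 20.5% of all genes. Both counts moved with single lists. Without young replicate 2 the first was 3, and without aged replicate 3 the second was 0, since Chek1, Trp53bp1, Palb2 and Xrcc2 were each missing in aged replicate 3 alone. Per gene, Fisher's exact test on lists called (2-sided, Benjamini-Hochberg adjusted over all 21627 genes) passed 0.05 for 0 genes, adjusted or not, because 3 lists against 3 cannot give a p below 0.1. Of the 57 other pathway genes, 5 were called in more aged and 4 in more young lists, and none of them differed by 2 lists or more.

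Among the damage signalling genes, Atm, Chek2 and Mdc1 were at the top of every list. Atm, the kinase that answers to double-strand breaks, had percentiles of 99.7, 99.8 and 99.5 in aged replicates 1 to 3, against 99.4, 99.2 and 99.1 in young replicates 1 to 3. Its region (chr9:53536471-53537447) covers the start. Chek2, the checkpoint kinase downstream of ATM, had 99.8, 99.2 and 99.4 in the aged lists, against 99.8, 99.5 and 99 in the young lists. Mdc1, the adaptor that binds damaged chromatin beside phosphorylated histone H2AX, had 99.4, 99.2 and 99.4 in the aged samples and 99.9, 99.5 and 99.1 in the young samples. All 3 genes were at 99 or above in every list.

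Atr, the kinase for stalled replication forks, lay between 95.9 and 98.9 in the aged lists, and in the young lists at 96.7, 22.3 and 96.3. Its young value is low in replicate 2 alone. Chek1, the kinase that ATR activates, was weaker, with 79.6 and 88.8 in aged replicates 1 and 2 and no call in replicate 3, against 86.5, 1.97 and 87.9 in young lists. The young replicate 2 peak of Chek1 had its summit 584 bp inside the gene and did not reach the promoter window, so that list too lacked the peak seen at the start elsewhere.

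Trp53bp1 encodes the protein 53BP1, which steers breaks towards end-joining. Its annotated gene ends carried weak peaks, with percentiles of 61.6 and 38.4 in aged replicates 1 and 2 and of 3.88, 73.1 and 30.1 in the young lists. The RefSeq start in the table used lies inside the annotated gene, and there the gene was open in all 6 lists, at 98.5, 98.7 and 93.5 in the aged lists, against 98.9, 73.1 and 96.1 in the young lists (region chr2:121270789-121271718). The gene-end window thus lay away from this gene's strongest region.

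In homologous recombination, Brca1 and Xrcc3 led. Brca1, whose protein promotes resection of breaks and loading of the recombinase, had percentiles of 99.9, 99.8 and 99.4 in the aged samples and 99.5, 99.6 and 99.7 in the young samples, in a region of 1294 bp (chr11:101551783-101553076). Xrcc3, a paralogue of that recombinase, had 100, 99 and 99.6 in the aged lists, against 99.7, 99.8 and 98.3 in the young lists. Both genes were at 98.3 or above in every list.

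Rad50 and Nbn encode subunits of the complex that holds broken ends. Rad50 had 98.4, 89.9 and 92.8 in the aged samples and 80.8, 61.5 and 91.3 in the young samples, and Nbn 95.5, 86.4 and 90.9 in the aged lists, against 94.6, 88.8 and 86.6 in the young lists. Rad50 was lowest in young replicate 2, and Nbn lay between 86.4 and 95.5 in all 6 lists.

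Brca2, which loads the recombinase onto single strands, was called at 71.6 and 92.5 in aged replicates 1 and 2 and at 90.9 and 88.8 in young replicates 1 and 3, and was missing once at each age. Palb2, the protein that joins BRCA1 to BRCA2, had 97.5 and 97.3 in aged replicates 1 and 2, and 99, 22.3 and 96 in young lists. Xrcc2, another recombinase paralogue, had 84.9 and 85.7 in aged replicates 1 and 2, and 96.7, 61.5 and 85.7 in young lists. All 3 genes lacked a call in aged replicate 3, the list that called the smallest share of genes.

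Rad52, which anneals single strands, was weak at its ends, with 29.3, 91.1 and 75.8 in the aged samples and 65, 42.7 and 87.7 in the young samples. A second region inside the gene, away from the start, was stronger (chr6:119918500-119919183). It was called in all 6 lists at 96.4, 96.8 and 95.8 in the aged lists, against 98, 97.6 and 96.9 in the young lists. Of 657 merged regions inside the members and away from their annotated ends, 6 (0.913%) were called in all 6 lists, against 0.633% of such regions in all genes, and 4 of the 6 lie at a RefSeq start inside the gene.

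The Fanconi genes were open at both ages, with 7 of 9 called in all 6 lists. Fance, a subunit of the core complex, led with 99.8, 99.6 and 99.2 in the aged samples and 100, 99.9 and 99.6 in the young samples. Fancf, an adaptor of the same complex, followed with 98.7, 93.4 and 82.5 in the aged lists, against 98, 98.1 and 91.2 in the young lists. Its 82.5 in aged replicate 3 was at the far end, and its peak around the start in that list had 5.32. Fanca, Fancg, Fancl (the ubiquitin ligase subunit) and Fancm (the translocase that anchors the complex) lay between 91.7 and 98.7 in all aged lists and in young replicates 1 and 3, and between 61.5 and 73.1 in young replicate 2. Low young values of these genes are thus confined to replicate 2. In that list Fancg and Fancm had their values at the far end, with no peak within 1 kb of the RefSeq start.

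Fancd2 and Fanci form the pair that the core complex ubiquitinates. Fancd2 had 92.4, 84.1 and 51.4 in the aged samples and 94.1, 61.5 and 86.1 in the young samples. Fanci had 80.7, 89.9 and 37.3 in aged lists, and 95.4 and 91.4 in young replicates 1 and 3 with no call in replicate 2. Both genes were lowest in aged replicate 3 among the aged lists, and lowest or missing in young replicate 2 among the young ones.

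Fancc, a further core complex subunit, was the weakest member by its gene ends. It had 44.1 and 22 in aged replicates 1 and 2 and 65 in young replicate 1, with no call in the 3 other lists. Its RefSeq start lies inside the annotated gene, and the region there (chr13:63431002-63432047) had 96.9, 96.6 and 98.4 in the aged lists, against 98.2, 99.6 and 96.3 in the young lists. Read at that start, Fancc was open at both ages.

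The end-joining genes gave 3 of 5 called in all 6 lists. Xrcc4, the partner of DNA ligase IV, had 99.6, 99.2 and 97.8 in the aged samples and 99.1, 80.3 and 98.5 in the young samples. The 80.3 was that of a peak with its summit 523 bp past the start, outside the promoter window. Prkdc, the catalytic subunit of DNA-PK, had 99.4, 99.4 and 99.5 in the aged lists, against 99.6, 73.1 and 95.7 in the young lists. Xrcc5 (Ku80), a subunit of the ring that clasps broken ends, had 82.5, 91 and 96 in aged lists, and 93.3 and 86.3 in young replicates 1 and 3 with no call in replicate 2. Young replicate 2 gave the lowest or missing value for each.

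Xrcc6 (Ku70), the other Ku subunit, was called by its ends at 91.4 and 59.6 in aged replicates 1 and 2 and at 68.5 in young replicate 3. Around its RefSeq start, again inside the annotated gene, it had 98.8, 98.5 and 98.3 in the aged samples and 99.6, 80.7 and 98.7 in the young samples (chr15:82015920-82016992, a region that also lies at an end of Desi1). The 80.7 was that of a peak with its summit 508 bp past the start, outside the promoter window. Lig4, the ligase of end-joining, had 94.9, 92.5 and 8.89 at its annotated ends in aged lists and 94.3, 96.9 and 91.7 in young lists. The peaks around the start whose promoter is printed above had 98, 98.7 and 95.1 in the aged lists, against 99.9, 96.9 and 98 in the young lists. The low aged value of Lig4 therefore depended on the window used.

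In base excision and single-strand break repair, Ogg1, the glycosylase for oxidised guanine, had 99.5, 99.7 and 99.8 in the aged samples and 99.7, 99.4 and 99.5 in the young samples. Xrcc1, the scaffold of single-strand break repair, had 99.8, 99.4 and 99.7 in the aged lists, against 99.9, 61.5 and 99.1 in the young lists. Its peaks lay just past the start: 0 lists had a peak in the 300-base promoter window, which ends at 24546748 on chromosome 7, and the merged region begins at 24546749. Parp1, the polymerase that marks breaks with ADP-ribose, had 96.6, 96.1 and 75.8 in the aged samples and 97.2, 73.1 and 96.3 in the young samples. Lig3, the partner of XRCC1, had 97.4, 95.6 and 81.4 in the aged lists, against 98.8, 80.7 and 95.5 in the young lists. The value of 80.7 was that of a far-end peak, and young replicate 2 had no peak within 1 kb of the RefSeq start of Lig3.

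Lig1, the ligase of replication and long-patch repair, was called at its annotated ends at 45 and 82.2 in aged replicates 2 and 3 and at 22.3 in young replicate 2. These few peaks lay at the far end of the gene. Around its starts it had 99.1, 97.4 and 93.8 in the aged samples and 98.7, 61.5 and 98.7 in the young samples (chr7:13278326-13278969, also at an end of Zswim9). A further region deep inside the gene (chr7:13302680-13303270) had 98.6, 98.6 and 97.2 in the aged lists, against 99.1, 97.6 and 98.8 in the young lists. Lig1 and Rad52 were the 2 members with a region called in all 6 lists that was neither at a gene end nor at a listed start.

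Of the nucleotide excision genes, Xpc, which finds distorted DNA, had 96.6, 98.3 and 92.2 in the aged samples and 99, 96.6 and 98.2 in the young samples. Ercc4, the catalytic part of the nuclease that cuts 5′ of a lesion, had 97.8, 98.7 and 98.7 in the aged lists, against 98.9, 61.5 and 99.1 in the young lists. Its partner Ercc1 had 98.8, 93.4 and 95.5 in the aged samples and 95.6, 61.5 and 92.7 in the young samples. Xpa, which checks the lesion, had 97.3, 92.2 and 93.5 in aged lists and 92.7 and 94.9 in young replicates 1 and 3, with no call in replicate 2. Of the 4 genes, Xpc alone ranked above 90 in young replicate 2.

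Mismatch repair was represented by Msh6, a subunit of the complex that recognises mismatched bases. It had 100, 99.9 and 99.5 in the aged lists, against 99.7, 99.2 and 99.6 in the young lists (chr17:87974504-87975286), and shared the highest mean rank of the 38 members, 99.7, with Brca1 and Fance. Those 3 genes and Atm, Chek2, Mdc1, Xrcc3 and Ogg1 lay above 98 in every list, the tied values of young replicate 2 included. In all, 9 members ranked above 90 in all 6 lists, against 11.7% of all genes, and 20 members did so when young replicate 2 was set aside, against 26.9% of all genes.

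To compare ranks between ages, each list was cut to its 100000 strongest peaks. A gene with no such peak at its ends was given a rank of 0. The 3 aged ranks lay above all 3 young ones for 1 of 38 members, Atm, which is 2.63%, against 2.79% of all genes. They lay below all 3 young ones for 1 member, Fance, against 1.23% of all genes. Each count is a single gene. Same-numbered aged and young samples also share an exp number in their titles (2, 5 and 3 for replicates 1 to 3), which the labels do not explain. Compared as such pairs, aged ranks were above young ones in all 3 pairs for 7 members (18.4%), against 6.65% of all genes: Atm, Atr, Chek2, Rad50, Nbn, Fancm and Ercc1. They were below in all 3 pairs for 1 member, Fance (2.63%), against 2.93%. One pair holds young replicate 2, where Atr and Fancm had a rank of 0 and Rad50 and Ercc1 of 5.73. In that list Atm, Chek2 and Nbn had 98, 98.7 and 71.5. The shares over all genes also include the 12.1% called in no list, which cannot differ in any pair. The part of either in the counts was not tested.

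For Atm the ranks were 99.2, 99.8 and 99.3 in the aged samples and 98.3, 98 and 99 in the young samples, a difference of 0.986 percentile points. For Fance they were 99.4, 99.4 and 99 in the aged lists, against 99.9, 99.6 and 99.5 in the young lists, a difference of -0.393 points. Every one of these ranks is 98 or higher. By the exact 2-sided permutation test each had a p of 0.1, the smallest that 3 lists against 3 allow, and an adjusted p of 1 over all 21627 genes. No gene passed 0.05 in this test, adjusted or not.

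**Figure D3:**
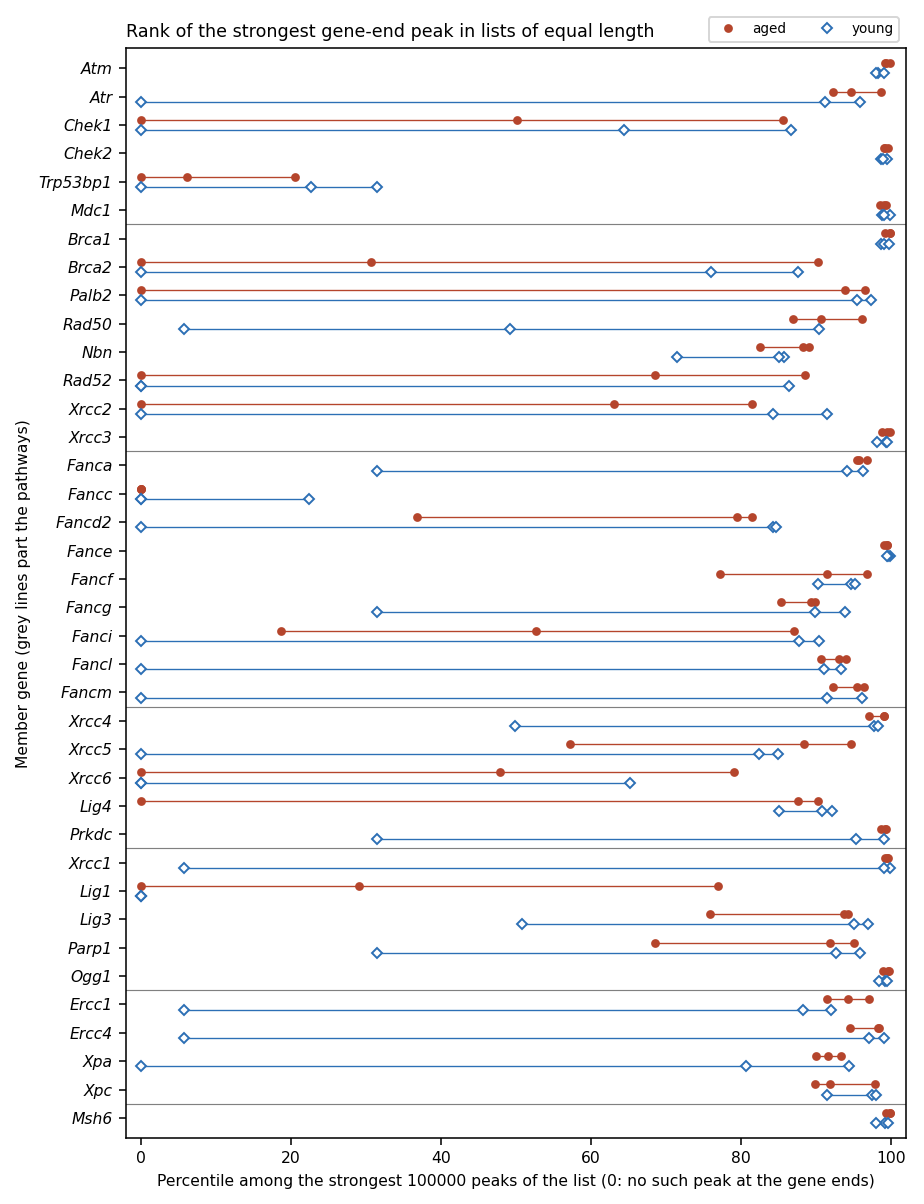
Percentile of each member's strongest gene-end peak among the 100000 strongest peaks of a list, for aged lists (filled circles, upper line of each gene) and young lists (open diamonds, lower line); lines span the 3 lists of an age and 0 marks no such peak. Atm and Fance are the members whose ages do not overlap, and the long young spans of Atr, Fancl, Fancm, Xrcc1, Ercc1, Ercc4 and Xpa reach down to young replicate 2, between 0 and 5.73.

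Over the 38 members the median difference in rank, aged minus young, was 6.45 percentile points, against 0.0267 over all genes and 3.6 over genes with a nonzero rank in any list. The difference was positive for 26 members (68.4%) and negative for 12, against 50.1% positive over all genes. Without young replicate 2 it was positive for 20 members (52.6%), against 30.2% of all genes, whose median was then 0. Both shares over all genes include genes with a rank of 0 in every list, whose difference is 0. Shares over genes with a nonzero rank are not given here, so these shares do not show an excess in members. The median over the members was 0.0536 without young replicate 2, and 14.9 without aged replicate 3. Rad50, the member with the largest difference (42.8 points: 91.2 ± 4.61 over the aged lists, against 48.5 ± 42.4 over the young lists, SD over 3 lists each; p by the exact permutation test 0.2, adjusted 1), had a difference of 21.4 points without young replicate 2. Lig1 came next at 35.3 points, with ranks of 0, 29 and 76.9 in the aged lists and 0 in each young list. Its difference was 35.3 without young replicate 2 as well, and 14.5 without aged replicate 3. Xpa and Atr, at 33.3 and 32.8 points, came down to 4.06 and 1.63 points without young replicate 2. By pathway, the median difference was 31 points for the 4 nucleotide excision genes, and 1.57 without young replicate 2. For the 5 end-joining genes it was 20.6 points, and 0.403 without that list. For the 6 damage signalling genes it was -0.0229 points, and -0.205 without that list. The other genes of these pathways had medians of 0.704, 7.54 and 25.5 points in the same order, and of -1.48, -2.46 and -1.26 without that list. Fanconi, base excision and homologous recombination members had medians of 9.58, 11.8 and 0.438 points, and of -3.68, 0.0411 and 0.534 without it. Msh6 had 0.761, and 0.308 without it. The other genes of these 4 groups had 12.5, 6.03, -0.865 and 30.8 points, and -1.94, -4.4, -0.407 and -2.21 without it.

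Where a start was known, it was the start and not the far end that was open. RefSeq starts were at hand for 32 members, and not for Rad50, Nbn, Xrcc2, Fancd2, Prkdc and Xpc. Within 1 kb of a start, 23 of 32 members (71.9%) had a peak in all 6 lists, against 35.3% of all genes with a start. More aged than young lists called 6 of the 32 (18.8%, against 20.4%), namely Fancg, Fanci, Fancm, Xrcc5, Lig3 and Xpa, each of them missing in young replicate 2. More young than aged lists called 2 (6.25%, against 16.8%), Chek1 and Palb2. Starts called in all lists of one age and none of the other numbered 0, against 0.127% (aged) and 0.203% (young) of all genes. Around the far end, 0 of 32 members were called in all 6 lists, against 2.29%, and 14 (43.8%) in no list, against 42.2%. There too, 0 members were called at one age alone, against 0.127% (aged) and 0.197% (young). Inside the 300-base promoter window 16 of 32 (50%) were called in all 6 lists, against 27.6%. In that window 9 members were called in more aged lists (28.1%, against 20.4%) and 3 in more young lists (9.38%, against 11.9%), and young replicate 2 called 18 of the 32, against 25 to 31 in the other lists. In this window 0 members were called at one age alone, against 0.0521% of all genes in each direction.

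The strongest peak near a start had its summit within 250 bp of it in 146 of 182 cases (80.2%), at a median of -36.5 bp, where negative values are upstream. The median was -36, -34.5 and -55 bp in aged replicates 1 to 3, against -44.5, -41 and -28.5 bp in young replicates 1 to 3. These medians overlap between the ages. Chek1 in young replicate 2, at 584 bp, and Fancf in aged replicate 3, at 226 bp, were single peaks of low rank (1.97 and 5.32) away from where the other lists had theirs. Xrcc4 and Xrcc6 in young replicate 2, at 523 and 508 bp, also lay away from the other lists, with percentiles of 80.3 and 80.7. Fancf, Xrcc4 and Xrcc6 are among the 23 members counted above with a peak near the start in all 6 lists.

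**Figure D4:**
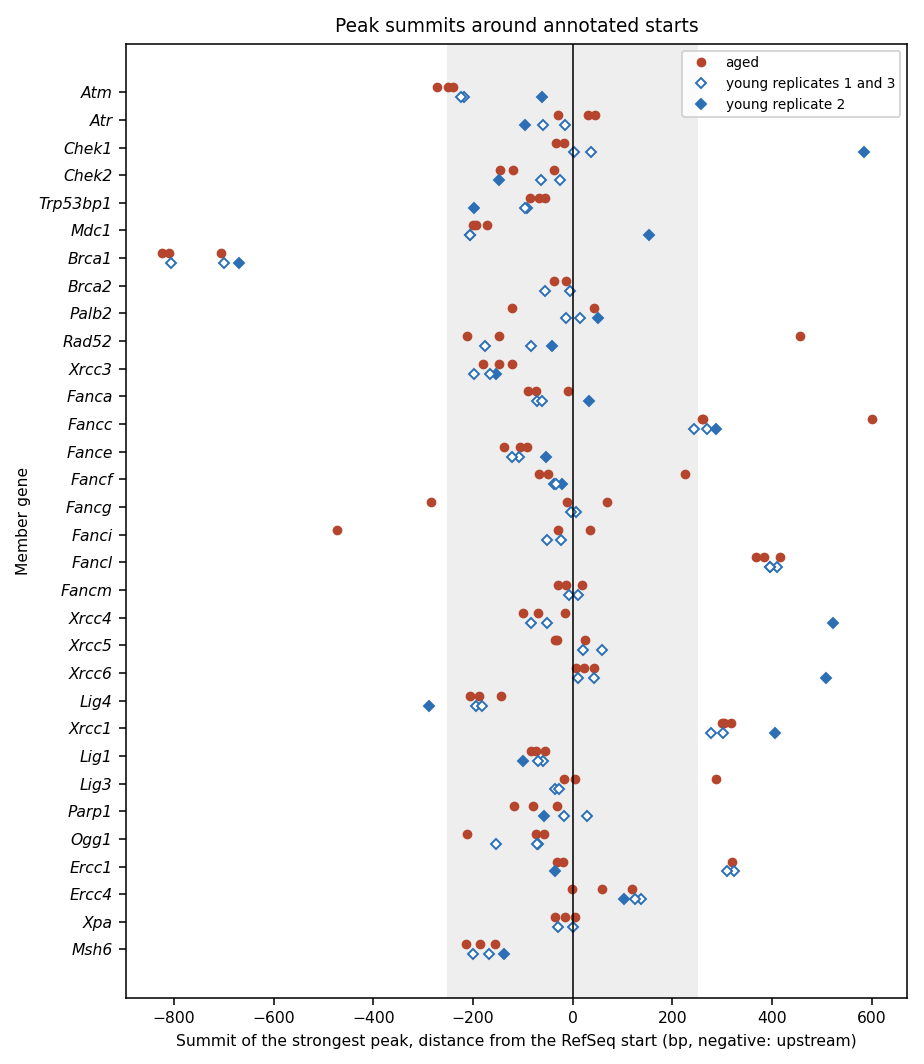
Distance in bp from the RefSeq start to the summit of the strongest peak within 1 kb, for the 32 members with a start (rows), in aged lists (filled circles) and young lists (open diamonds, with replicate 2 filled); the grey band spans 250 bp on each side of the start. Most summits lie in the band at both ages, those of Brca1 lie between -825 and -670 bp in all 6 lists, and those of Xrcc1 and Fancl lie downstream.

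Many of the members share their open region with a neighbouring gene. For 16 of 38 members (42.1%) the strongest gene-end region also lay within 1 kb of an end of another protein-coding gene, against 19.8% of the 19017 genes with a region. In 8 pairs the 2 starts were on opposite strands and at most 1 kb apart: Atm with Npat, Atr with 1700065D16Rik, Brca1 with Nbr1, Palb2 with Dctn5, Xrcc3 with Zfyve21, Fancf with Gas2, Xrcc4 with Tmem167 and Xrcc1 with Pinlyp. Chek2 shared its region with Hscb, Prkdc with the replicative helicase gene Mcm4, Fancd2 with Emc3, and Xpc with Lsm3, for which no pair of starts was at hand.

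The summit was not always nearest to the repair gene. At Brca1 and Nbr1, whose starts are 699 bp apart, the summit was nearer to the start of Nbr1 in all 6 lists, at a median of 68 bp from it and 756 bp from that of Brca1. At Atm and Npat, 376 bp apart, it was nearer to Npat in 5 of 6 lists, and at Xrcc3 and Zfyve21, 291 bp apart, nearer to Zfyve21 in 5 of 6. At Fancf and Gas2 it was nearer to Fancf in 5 of 6 lists, and at Xrcc1 and Pinlyp nearer to Xrcc1 in all 6. At Xrcc4 and Tmem167 it was nearer to Tmem167 in 4 lists and to Xrcc4 in 1. At Fancm and Fkbp3, whose starts are 1665 bp apart, it was nearer to Fkbp3 in 5 lists and to Fancm in 0. Its median distance there was 88 bp from Fkbp3 and 1580 bp from Fancm. A separate peak lay at the RefSeq start of Fancm in every list but young replicate 2, with summits from -30 to 18 bp. Those start peaks ranked at 94.9, 91.3 and 93.8 for aged replicates 1 to 3. For young replicates 1 and 3 they ranked at 97.2 and 91.6. Outside young replicate 2, the gene-end ranks of Fancm given above belong to the region shared with Fkbp3, not to these start peaks. Peaks at such shared regions cannot be told apart between the 2 genes. This applies, among others, to the high ranks of Brca1, Atm, Chek2, Xrcc3, Xrcc4, Prkdc and Xrcc1 given above.

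The promoters of the members are rich in CpG. The ratio of observed to expected CpG had a median of 0.856 in 32 member promoters and 0.602 in 17273 promoters of all genes, and 27 members (84.4%) were above 0.6, against 50.2% of all promoters. GC content was closer, at a median of 58.8% and 57%. Of the 27 CpG-rich members, 20 (74.1%) were called within 1 kb of the start in all 6 lists, against 59.3% of all genes with such a promoter. Set beside genes of like CpG content, the share of open repair genes was thus less far from the background than beside all genes.

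The motifs searched were those of E2F, as TTTCCCGC, TTTGGCGC, TTTCGCGC, TTTGCCGC or TTTCCCGG, of NRF1, as GCGCATGC, of ETS factors, as CCGGAAGT or CCGGAAAT, of CREB, as TGACGTCA (a CRE), and of YY1, as AAGATGGC. The CCAAT box was sought by its own 5 letters, and the GC box as GGGCGG. All were sought on both strands and with overlapping matches allowed. E2F letters were in 7 of 32 member promoters (21.9%), against 4.48% of all promoters: those of Chek2, Mdc1, Brca2, Fancg, Xrcc6, Lig1 and Msh6. NRF1 letters were in 5 (15.6%, against 3.71%), those of Atm, Fanci, Fancm, Xrcc5 and Xpa. ETS letters were in 5 (15.6%, against 6.29%), CCAAT in 18 (56.2%, against 39.2%) and the GC box in 21 (65.6%, against 48.1%). The CRE was in 1, that of Brca2 (3.12%, against 2.4%), and YY1 letters were in 0 (against 3.31%). Of letters found in sites of p53, spelled GGGCATGT, GGACATGT, AGACATGT, AGGCATGT or AACATGTC, 0 of 32 held a match, against 2.75% of all promoters. In the promoters printed above, Xrcc3 holds 6 matches of CCAAT and 4 of the GC box, and Fance and Msh6 hold 5 GC boxes each. These are matches of letters and say nothing of binding.

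Across whole loci, gene bodies with 1 kb on each side, the members held 0.0907%, 0.104% and 0.107% of the distinct peaks of the aged lists and 0.0879%, 0.0981% and 0.0986% of those of the young lists. The mean was 0.1% ± 0.0086 over the aged lists, against 0.0948% ± 0.00603 over the young lists (SD, n = 3 each), and the difference of 0.00564 percentage points is within 1 SD. With 1 list left out it ran from 0.00216 to 0.0105 points, where 0.0105, without aged replicate 1, is above both SDs. Fancc and Xrcc4 held most peaks of the 38 loci. Fancc, of 196 kb, held 24, 9 and 13 in the aged samples and 21, 12 and 6 in the young samples, and Xrcc4, of 241 kb, 12, 4 and 3 in the aged lists, against 24, 15 and 10 in the young lists. In the other groups Trp53bp1 led with 15, 5 and 11 in the aged samples and 9, 14 and 7 in the young samples, and Brca1 with 15, 7 and 8 in the aged lists, against 15, 7 and 2 in the young lists. Parp1 had 4, 8 and 3 in the aged samples and 7, 7 and 3 in the young samples, Xpc 4, 5 and 2 in the aged lists, against 5, 7 and 5 in the young lists, and Msh6 4, 4 and 3 in the aged samples and 3, 3 and 2 in the young samples. Of the 657 regions inside members, 568 (86.5%) were called in 1 list alone, against 85% in all genes, and 0 had every list of one age and none of the other, against 0.0517% (aged) and 0.0683% (young) of such regions in all genes. More aged than young lists called 256 of the 657, against 39.5% of such regions in all genes, and more young than aged lists 355, against 52.6%.

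The number of distinct peaks per locus separated the ages for 1 member in each direction (2.63% of 38). Chek2 had 5, 5 and 7 peaks in aged replicates 1 to 3, against 2, 2 and 3 in young replicates 1 to 3, and 0.601% of all genes had aged counts all above young ones. Rad50 had 5, 3 and 2 peaks in aged replicates 1 to 3, against 11, 7 and 7 in young replicates 1 to 3, and 1.36% of all genes had aged counts all below young ones. The lists were not of equal length for these counts, and the part of length in them was not tested. Neither gene had a body region called in all lists of one age and none of the other.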

How the data were processed

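ATAC-seq peak lists of 3 aged and 3 young samples were used, grouped and numbered by the sample titles. The submitters' processing notes name the build mm10 and the tools Bowtie2, SAMtools, Picard and MACS2, with versions, parameters, roles and any shift of reads not given in the sources used here. The lists have no header. In the deposited lists each peak has a score (10 times the -log10 p, at most 1000), a fold enrichment (a ratio over the background of its own sample), a -log10 of its p, a -log10 of its q, and a summit. All deposited peaks have a p-value of at most 0.01. These are the authors' own values and served only to order or select peaks inside each list. Each sample has its own list, and 0 of 15 pairs of lists were identical.

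Rows with the same interval were merged to distinct peaks on chromosomes 1 to 19 and X, and percentiles average ties. Gene ends were read from RefSeq's gene table (GRCm38.p6), starts and promoters from a RefSeq promoter table (32 of 38 members). Where a gene has several starts, the one whose promoter window ranked highest over the 6 lists was used for letters and summits. A call needs an overlap of at least 1 bp. Peaks of all lists that overlap were merged to regions, and the strongest region is the one with the highest mean percentile, with a missing call set to 0. For ranks of equal length each list was cut to 100000 peaks, with ties at the limit ordered at random (seed 11). Tests per gene were Fisher's exact and exact 2-sided permutation tests, Benjamini-Hochberg adjusted over 21627 genes; no test was run over the members. The counting code was checked on simulated calls over 21627 genes, where 199 of 200 planted aged-only and 200 of 200 young-only genes were found. Planted genes were set to differ in every list and were read at 1 position each, not in the 1 kb windows. This shows only that the counting ran as written.

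Members and lists were chosen with earlier results of these data known. One stem-cell marker gene is not reported here. Values are given for the 2 highest-ranked members of each pathway, members in 3 or fewer lists, those differing by 2 or more lists, those whose ranks do not overlap, and the member with most peaks per pathway; other members are named because all 38 are accounted for. Promoters shown are the first of each pathway by lists called and mean percentile in the promoter window. Python 3.11.15, NumPy 2.4.6, pandas 2.3.3, SciPy 1.17.1 and matplotlib 3.10.9 were used.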

Additional observations from a re-analysis of the deposited data

How the results depend on the processing

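The count of members with a gene end called in all 6 lists, 27, stayed between 19 and 30 with peaks of a q-value of at most 0.05, lists of equal length, windows of 500 bp or 2 kb, 50% of each peak inside, or the RefSeq start (added after the data were seen). When 1 list was left out it was 27 to 31. It cannot fall below 27 there, since fewer lists need a call, so that range does not test the count. It was 16 of 32 in the promoter window and 0 of 32 at the far end. Members called in more aged lists, 6, became 10 with lists of equal length, 10 with 500 bp windows and 2 with 2 kb windows, and 3 to 7 with 1 list left out (3 without young replicate 2). Those called in more young lists, 4, became 2 with lists of equal length and 0 to 5 with 1 list left out (0 without aged replicate 3). Without aged replicate 3 and young replicate 2 together, an alternative added after the data were seen, these counts were 3 and 0. There 4 members had aged ranks above and 6 below all young ones, with fewer ranks that need to part. With 1 list left out those 2 counts ran from 1 to 9 (9 without young replicate 3, and 4 or 5 without young replicate 1 or any aged replicate) and from 1 to 5 (3 without young replicate 1 and 5 without young replicate 2). Shares over all genes are not given for these settings, so the counts are not read as a result about the members. The cause of the shifts was not tested. The difference in members called per list changed sign to -1 with 2 kb windows, and ran from -0.667 to 2.83 with 1 list left out, where 2.83, without aged replicate 3, is above the SD of the young lists.

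With the replicate number as a block, the members that differed the same way in all 3 pairs were 0 for calls in either direction, and 7 (18.4%) for ranks higher in aged and 1 (2.63%) for ranks lower, against 6.65% and 2.93% of all genes. The limits given above for these pairs, young replicate 2 and genes called in no list, apply here too. The titles give same-numbered samples a shared exp number that the labels do not explain. Deviations of same-numbered lists had correlations across genes of 0.0282, -0.247 and -0.289 for numbers 1 to 3. Those of unlike-numbered aged and young lists ran from -0.0718 to 0.316. The highest were aged replicate 2 with young replicate 3 (0.316) and aged replicate 3 with young replicate 2 (0.235). The comparisons were otherwise made without pairs, and what the shared exp number stands for was not tested. Depth is unknown, and 3 lists per age limit every test to a p of 0.1 or more.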

Other observations

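Among the 57 other genes of the repair pathways, which were given above as counts, the gene ends of Rad23b, a partner of XPC, Parp2, a relative of PARP1, and Rpa3, the smallest subunit of the single-strand binding complex, ranked highest by mean percentile. Rad23b had 98.9, 99.3 and 99.8 in aged replicates 1 to 3, against 99.9, 99.1 and 99.2 in young replicates 1 to 3. Parp2 had 99.6, 99.9 and 99.2 in the aged lists, against 100, 96.9 and 99.7 in the young ones. Rpa3 had 99.8, 99.6 and 97.1 in the aged lists, against 99.9, 99.8 and 98.8 in the young ones. Each of them was at 96.9 or above in every list. Rbbp8, whose protein CtIP starts the resection of breaks, was called at its ends in 1 aged list, at 44.1, and 1 young list, at 88.8. Of the damage signalling genes, Topbp1, an activator of ATR, and Clspn, an adaptor for CHEK1, were called in every list but young replicate 2.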
